A study of Arabidopsis thaliana with 18 samples.

Results

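The ANT, PLETHORA and BABY BOOM genes of Arabidopsis thaliana form a small family of plant transcription factors, and 8 of them were followed here through early embryo development. The members were taken by their locus identifiers, with no use of their levels: ANT (AT4G37750), AIL1 (AT1G72570), PLT1 (AT3G20840), PLT2 (AT1G51190), AIL5 (AT5G57390), AIL6 (AT5G10510), AIL7 (AT5G65510) and BBM (AT5G17430). All 8 were among the 27564 genes of the deposited table, and 7 of them were among the 18338 genes tested. AIL5, AIL6 and AIL7 are also known as PLT5, PLT3 and PLT7.

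Embryos of plants grown at 22 °C under 16 h of light and 8 h of dark were dissected by hand, and their polyadenylated RNA was amplified as cDNA and sequenced. The libraries cover 6 stages, 2/4-cell, 8-cell, 16-cell, 32-cell, globular and heart, with 3 libraries each and 18 in all. The labels name no mutant, transgene or treatment and no strain. The design follows the mRNA of the embryo through time, and each stage was set against the one before it and the heart stage against the 2/4-cell and 8-cell stages.

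Members of this family carry a pair of AP2 domains, with which they bind DNA, and they keep dividing cells in an undifferentiated state. PLT1, PLT2 and BBM are needed with one another for the root stem cell niche, and embryos without functional PLT2 and BBM arrest early, while forced BBM expression turns leaf tissue of seedlings into somatic embryos. ANT and AIL6 act in the initiation and growth of lateral organs, and AIL5, AIL6 and AIL7 act jointly in the placing of organs around the shoot apex and in root formation.

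Levels are given in TPM, a gene's share of the transcripts of a library, a unit that already accounts for transcript length. Every library adds up to the same total, so sequencing depth is unknown and no counting interval can be given. From 15381 to 16731 genes per library were at 1 TPM or above and from 5271 to 9283 at 0. Pearson's r between libraries of a stage, over log2(TPM + 1) of the tested genes, ran from 0.884 to 0.9 at the 2/4-cell stage, and from 0.968 to 0.981 in globular as well as heart embryos. In 16-cell replicate 3 all 7 tested members had the lowest level of their stage, and in globular replicate 2 all 7 had the highest.

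Hand-dissected embryos can carry tissue of the seed around them. The summed level of 19 seed coat markers was 459, 1072 and 1716 TPM in the 2/4-cell libraries. It ranged over 65.6 to 122 TPM in 8-cell libraries, 47.5 to 63.5 in 16-cell libraries, 117 to 396 in 32-cell libraries, 139 to 152 in globular libraries and 134 to 142 TPM in heart libraries. The markers did not move alike after 2/4-cell. SBT1.7 averaged 16.3 TPM at 8-cell and 66.8 TPM at heart, out of a mean heart sum of 139 TPM. BAN, a gene of seed coat pigment, averaged 10.9 TPM at 8-cell and 1.42 TPM at heart. The later sums thus do not rank the stages by their seed coat RNA. At heart 1 of the 19, TT1, was at 0 in all 3 libraries, and at 2/4-cell none was. The summed level of 14 endosperm markers was 82.3 TPM in 2/4-cell replicate 3 and 0.145 to 4.03 TPM in the other 17 libraries, with 2 of the 14 at 0 in all 3 libraries at 2/4-cell and 3 at heart. Of 8 genes that mark the embryo itself, such as WOX2 and LEC1, 1 was at 0 throughout the 8-cell and the 16-cell libraries and none throughout any other stage, and they summed to 659 to 1099 TPM at 2/4-cell and 714 to 806 TPM at heart. In bulk samples of this kind, fewer cells of a type and less RNA per cell cannot be told apart.

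The makeup of the family's mRNA differed from stage to stage. The 2/4-cell embryo held mostly BBM and PLT2, the 16-cell embryo held PLT1 and BBM in nearly equal amounts, and the heart embryo held ANT and AIL5 above all others. ANT, AIL5 and AIL6 were higher in the heart embryo than in both early stages, and PLT2 was lower. A moderated F test in limma over the 6 stages, with p adjusted over all tested genes, passed for 7 of the 8 members, while 54.3% of all genes tested passed it. ANT is set aside here, since it reached 1 TPM in the later stages alone and so had to differ. Of the other 6, the adjusted p was smallest for AIL6 (1.2e-08) and AIL5 (6.0e-08) and largest for BBM (0.04). The BBM call did not hold without 2/4-cell replicate 1 or 2 (adjusted p = 0.0588 and 0.0555), without 8-cell replicate 1 or 3 (0.104 and 0.0744) and without heart replicate 2 or 3 (0.0861 and 0.122).

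**Figure D1:**
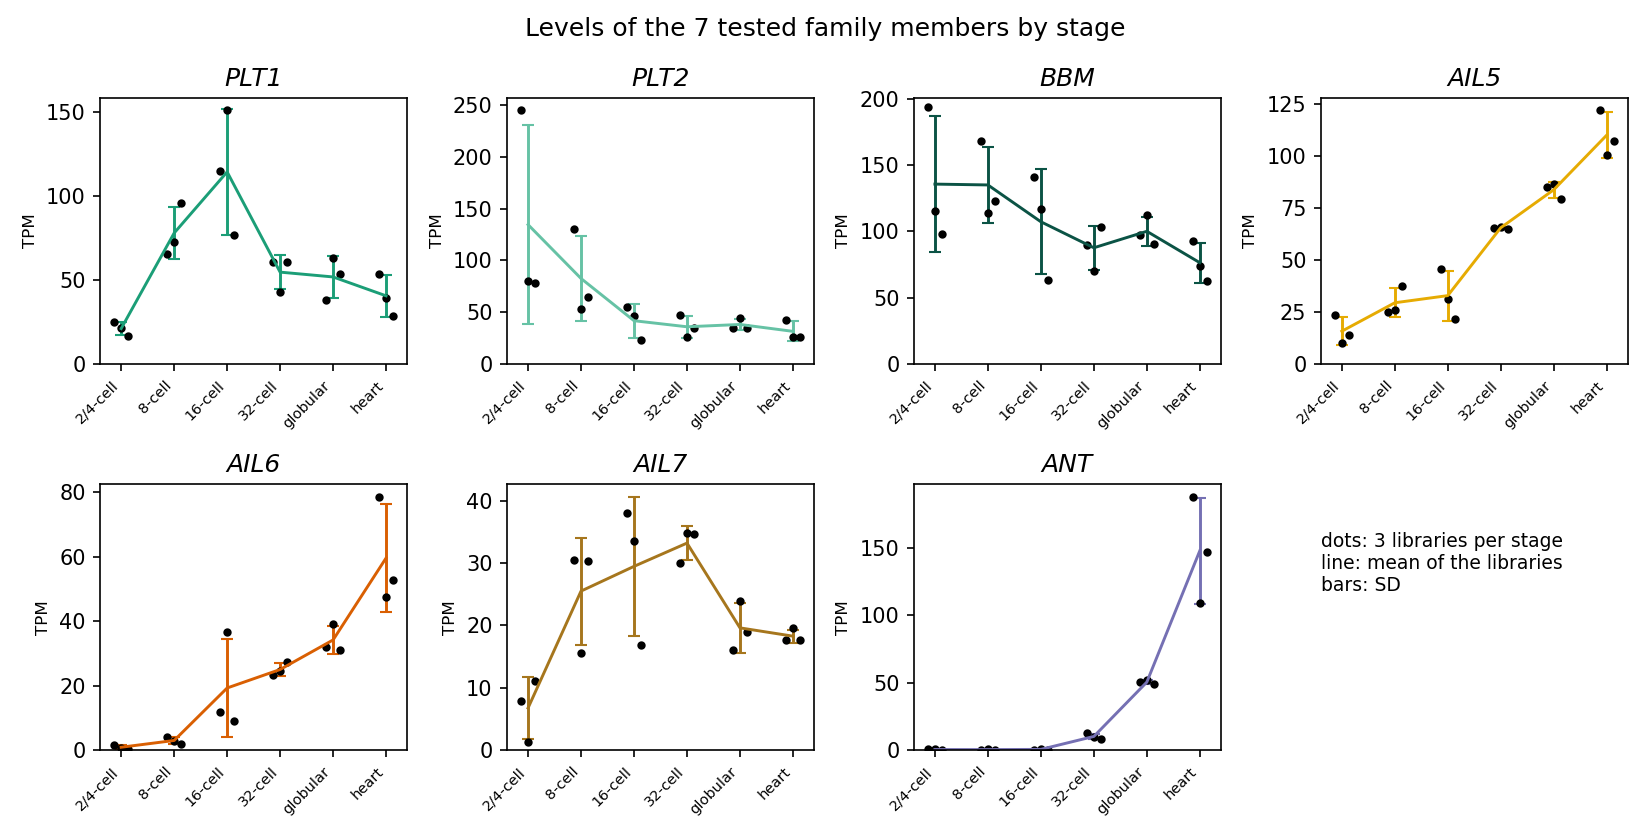
Levels of the 7 tested members in TPM on linear axes, by stage in developmental order; each dot is a library (3 per stage), the line joins the stage means and the bars are ± 1 SD. ANT, AIL5 and AIL6 are highest at heart, where ANT reaches 109 to 188 TPM, PLT1 is highest at 16-cell, and PLT2 and BBM have their highest libraries at 2/4-cell.

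PLT1 and PLT2 are the root members of the family, expressed downstream of auxin and of the auxin response factor MP in the embryo. PLT1 stood at 24.9, 21.1 and 16.8 TPM in the 2/4-cell libraries and at 65.5, 72.4 and 95.5 TPM in the 8-cell libraries. It stood at 115, 151 and 76.5 TPM at 16-cell and at 60.5, 42.8 and 60.3 TPM at 32-cell. The globular libraries held 38.2, 63.1 and 53.7 TPM and the heart libraries 53.6, 39.1 and 28.6 TPM. PLT1 was thus a gene with an early peak: every 8-cell and 16-cell library lay above every library of the other stages, the 8-cell and 16-cell libraries overlapped, and every 2/4-cell library lay below all others.

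PLT1 rose 3.59-fold on the TPM + 1 scale in 8-cell against 2/4-cell embryos (log2 change 1.84, SE 0.42, limma adjusted p = 0.017), with no overlap between the libraries. PLT1 and AIL7 were the 2 members called higher in this comparison, in which 1.05% of all genes were called higher and 1.96% lower. The PLT1 call did not hold when 2/4-cell replicate 2 was left out (adjusted p = 0.0885), nor without 2/4-cell replicate 3 (0.115) or without 8-cell replicate 3 (0.0704), with log2 changes of 1.69 to 1.86. In 32-cell against 16-cell embryos the PLT1 libraries did not overlap either, but the log2 change of -1.01 (SE 0.33) did not pass the test (adjusted p = 0.0818). It passed after median-ratio scaling (log2 change -1.27, adjusted p = 0.0123), and likewise without 16-cell replicate 3 (-1.27, 0.0243) or heart replicate 3 (-1.01, 0.0476). In heart against 8-cell embryos PLT1 fell 1.94-fold (log2 change -0.96, SE 0.27, limma adjusted p = 0.0076), a call lost without 8-cell replicate 3 (-0.80, adjusted p = 0.0756). Between heart and 2/4-cell embryos its log2 change of 0.89 did not pass (adjusted p = 0.0734), and without heart replicate 3 it did (1.11, adjusted p = 0.0235).

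PLT2 had 246, 79.9 and 78.1 TPM in the 2/4-cell libraries, 130, 53.2 and 64.4 TPM at 8-cell and 55.4, 46.2 and 23.4 TPM at 16-cell. Its later libraries held 47.2, 25.8 and 34.4 TPM at 32-cell, 34.8, 44.3 and 35 TPM at globular and 42.5, 26 and 25.6 TPM at heart. Neighbours in the order of its stage means overlapped throughout, yet all 3 libraries of 2/4-cell and all 3 of 8-cell lay above all 3 of heart. PLT2 fell 3.7-fold in heart against 2/4-cell embryos (log2 change -1.89, SE 0.46, limma adjusted p = 0.00343). It fell 2.46-fold in heart against 8-cell embryos (log2 change -1.30, SE 0.33, limma adjusted p = 0.00335). No pair of consecutive stages differed in PLT2 by this test. The high value in 2/4-cell replicate 1, the library with the least seed coat marker RNA of its stage, weighed on the first of these calls: without it the log2 change was -1.35 (adjusted p = 0.0544).

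The 2 root genes therefore exchanged places early. The level of PLT1 was 0.101 to 0.264 times that of PLT2 in the 2/4-cell libraries, 0.504 to 1.48 times at 8-cell and 2.07 to 3.27 times at 16-cell. At 32-cell, globular and heart the ratio stayed between 1.1 and 1.75. A ratio within a library does not depend on how libraries are scaled. It was below 1 in all 3 libraries of 2/4-cell and in 1 of 8-cell, and above 1 in the other 14.

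BBM, which also acts in the root stem cell niche, was the member with the flattest course. Its libraries held 194, 115 and 97.9 TPM at 2/4-cell, 168, 114 and 123 TPM at 8-cell and 141, 117 and 63.6 TPM at 16-cell. They held 89.5, 70.2 and 103 TPM at 32-cell, 97.4, 112 and 90.6 TPM at globular and 92.5, 73.8 and 62.6 TPM at heart. Libraries of neighbouring stages in its order overlapped in every case, and its stage mean had 91% or more of all genes below it at every stage. Its highest library, 2/4-cell replicate 1, was also the highest for PLT2, and no heart library reached the lowest 2/4-cell library.

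In heart against 8-cell embryos BBM fell 1.76-fold (log2 change -0.81, SE 0.23, limma adjusted p = 0.00654), a call lost without 8-cell replicate 1 (-0.64, adjusted p = 0.0526). Between heart and 2/4-cell embryos its log2 change of -0.78 did not pass the test (adjusted p = 0.0608). It passed after median-ratio scaling (-1.26, adjusted p = 0.00137), after quantile normalization (-0.97, 0.0114), without 16-cell replicate 3 (-0.78, 0.0419) and without heart replicate 1 (-0.92, 0.0202). PLT2 stood at 0.696 to 1.27 times the level of BBM in the 2/4-cell libraries and at 0.335 to 0.527 times from 16-cell on.

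AIL5, AIL6 and AIL7, which act jointly at the shoot apex, each had their lowest stage mean at 2/4-cell, but their courses then parted. AIL5 had 23.2, 9.91 and 13.8 TPM in the 2/4-cell libraries, 24.7, 25.8 and 37.4 TPM at 8-cell and 45.4, 31.2 and 21.6 TPM at 16-cell. It had 65.2, 65.9 and 64.9 TPM at 32-cell, 85.1, 86.5 and 79.1 TPM at globular and 122, 100.4 and 107 TPM at heart. From 16-cell on the stages formed steps without overlap, and the SD of 0.481 TPM between the 32-cell libraries was the smallest among the stages for AIL5. The step in 32-cell against 16-cell embryos was called, with a 2.05-fold rise (log2 change 1.04, SE 0.24, limma adjusted p = 0.013). With 16-cell replicate 2 left out it did not pass (1.03, adjusted p = 0.0989). In heart embryos AIL5 was 7.01-fold higher than in 2/4-cell embryos (limma adjusted p = 3.5e-07) and 3.7-fold higher than in 8-cell embryos (limma adjusted p = 2.6e-07).

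AIL6 was close to absent at first. It had 1.65, 0.575 and 0.361 TPM in the 2/4-cell libraries, 4.18, 2.76 and 1.94 TPM at 8-cell and 11.9, 36.7 and 9.1 TPM at 16-cell. It had 23.3, 24.4 and 27.2 TPM at 32-cell, 32.1, 39.2 and 31.1 TPM at globular and 78.5, 47.3 and 52.8 TPM at heart. Only the 16-cell and 32-cell libraries overlapped among neighbours in its order of stages. The 4.41-fold rise in 16-cell against 8-cell embryos was the only member change called in that comparison (log2 change 2.14, SE 0.42, limma adjusted p = 0.0207), in which 0.464% of all genes were called higher and 0.191% lower. The 16-cell libraries spread widely, and 16-cell replicate 2 alone held 36.7 TPM. Without that library the log2 change was 1.57 (adjusted p = 0.458), without 8-cell replicate 2 or 3 it was 2.12 and 1.95 (adjusted p = 0.052 and 0.101), and without 16-cell replicate 3 it was 2.52 (adjusted p = 0.00555).

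Over the whole course AIL6 changed more than AIL5. On the TPM + 1 scale it was 33.1-fold higher in heart than in 2/4-cell embryos (log2 change 5.05, SE 0.44) and 15.3-fold higher than in 8-cell embryos (limma adjusted p = 8.0e-09). Its 2/4-cell mean was 0.863 TPM, below the 1 TPM level of the filter for testing. The first of these folds is therefore given with no p. Since 2 of the 2/4-cell libraries held less than 1 TPM of AIL6, that fold also depends on the pseudocount, with a log2 change of 3.44 at a pseudocount of 5 and of 6.15 at 0.1. In heart against globular embryos the libraries of AIL6 did not overlap, with a log2 change of 0.76 that did not pass the test (adjusted p = 0.0891) and that passed without 16-cell replicate 2 (adjusted p = 0.0423). The level of AIL6 was 0.0262 to 0.0714 times that of AIL5 in the 2/4-cell libraries and 0.471 to 0.644 times in the heart libraries, so AIL5 remained the more abundant of the 2 at heart. In 1 library, 16-cell replicate 2, AIL6 exceeded AIL5, by 1.17 times.

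AIL7 rose early, like PLT1, and did not keep rising. It had 7.79, 1.33 and 11.1 TPM in the 2/4-cell libraries, 30.5, 15.6 and 30.4 TPM at 8-cell and 38.1, 33.5 and 16.8 TPM at 16-cell. It had 30, 34.9 and 34.7 TPM at 32-cell, 16, 23.9 and 18.9 TPM at globular and 17.6, 19.5 and 17.7 TPM at heart. The 2/4-cell libraries lay below all others, and among the remaining stages neighbours in the order overlapped.

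The rise of AIL7 in 8-cell against 2/4-cell embryos was 4.05-fold (log2 change 2.02, SE 0.47, limma adjusted p = 0.0204). It was not called without 2/4-cell replicate 2, which held 1.33 TPM (log2 change 1.30, adjusted p = 0.243), nor without 8-cell replicate 1 or 3 (1.86 and adjusted p = 0.0756 for each). In heart against 2/4-cell embryos AIL7 was 3.06-fold higher (log2 change 1.62, SE 0.43, limma adjusted p = 0.00636), and without 2/4-cell replicate 2 this call was lost as well (0.90, adjusted p = 0.138). All 3 globular libraries lay below all 3 of 32-cell, with a log2 change of -0.75 at an adjusted p of 0.0515. That change passed after median-ratio scaling (-0.91, adjusted p = 0.0103) and without any 1 of 5 libraries, which were 2/4-cell replicate 2 or 3, 8-cell replicate 2, 16-cell replicate 3 and globular replicate 2 (adjusted p between 0.0235 and 0.0453). Relative to AIL5 in the same library, AIL7 stood at 0.603 to 1.23 at 8-cell and at 0.145 to 0.194 at heart.

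ANT, a regulator of organ initiation and growth, was the last of the 7 tested members to reach 1 TPM and had the largest fitted change in heart against 2/4-cell embryos. It had 0.444, 0.466 and 0.182 TPM in the 2/4-cell libraries, 0.228, 0.446 and 0.282 TPM at 8-cell and 0.382, 0.726 and 0.309 TPM at 16-cell. It had 12.3, 9.49 and 8.46 TPM at 32-cell, 50.3, 51.9 and 49.1 TPM at globular and 188, 109 and 147 TPM at heart. ANT was below 1 TPM in all 9 libraries of the first 3 stages, which overlapped, and from 16-cell on the stages did not overlap. Since ANT passed the filter on low values through the later stages alone, its differences from the first 3 stages are given as a description of when it appears, with no p.

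ANT was higher at each step from 16-cell on. The difference was 7.5-fold in 32-cell against 16-cell embryos (log2 change 2.91, SE 0.32), where ANT and AIL5 were the 2 members past the threshold and 4.86% of all genes were called higher and 0.48% lower. The rise was 4.69-fold in globular against 32-cell embryos (log2 change 2.23, SE 0.21, limma adjusted p = 2.7e-06), where ANT was the only member called and 8.29% of all genes were called higher and 5.75% lower. It was 2.82-fold in heart against globular embryos (log2 change 1.50, SE 0.20, limma adjusted p = 1.5e-04), again as the only member called, where 2.29% of all genes were called higher and 1.48% lower. These folds are on the scale of TPM + 1, which understates changes from levels below 1 TPM: the mean was 148 ± 39.5 TPM at heart and 0.364 ± 0.158 TPM at 2/4-cell (SD, n = 3 each), with a fitted fold of 107 (log2 change 6.74, SE 0.37). That log2 change was 4.80 with a pseudocount of 5 and 8.35 with one of 0.1.

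The early level of ANT can be set beside the seed coat RNA of the 2/4-cell libraries. ANT is known to be active in ovule integuments, from which the seed coat forms, and it stood at 0.182 TPM in 2/4-cell replicate 3, the library with the most seed coat marker RNA, against 0.444 and 0.466 TPM in the other libraries of that stage. BAN (AT1G61720), an enzyme of seed coat pigment, averaged 1.42 ± 0.407 TPM at heart and 204 ± 133 TPM at 2/4-cell (SD, n = 3 each). Of the 17 seed coat markers tested, 13 fell in heart against 2/4-cell embryos and 1 rose, and 8 to 13 fell with single libraries left out. Whether seed coat RNA took part in the level of ANT or of any other member at 2/4-cell was not tested.

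AIL1, a member about which little is known, was listed at 0 TPM in all 3 libraries of each stage before heart. The heart libraries held 0.35, 0 and 0.073 TPM. It never reached 1 TPM and was not tested.

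**Figure D2:**
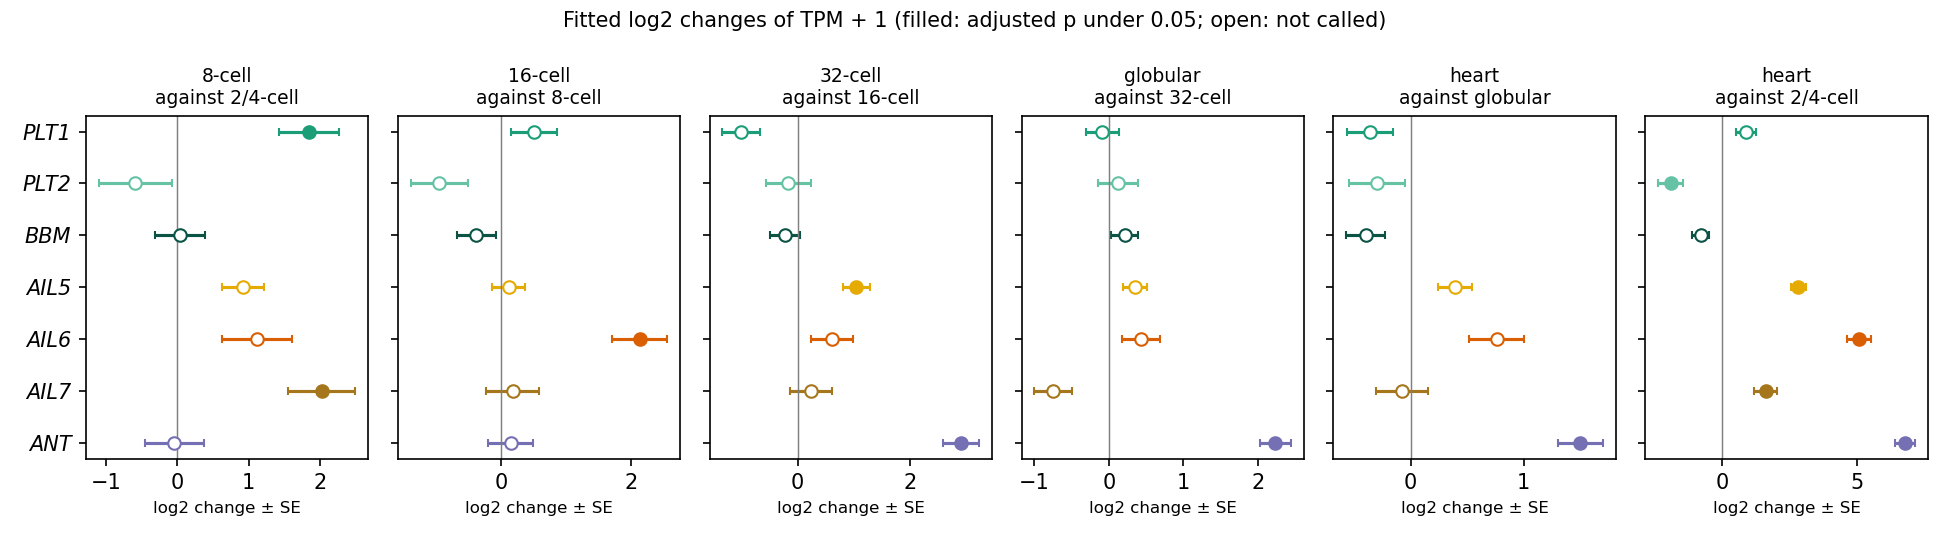
Fitted log2 changes of TPM + 1 for the 7 tested members in 6 comparisons, with the later stage on top of each change and horizontal bars of ± 1 SE; filled symbols passed an adjusted p of 0.05 and open ones did not. ANT is filled in each of the last 4 panels, with log2 changes of 2.91, 2.23, 1.50 and 6.74, and PLT2 is the only member filled to the left of 0.

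Across the whole course members moved in both directions. In heart against 2/4-cell embryos ANT, AIL5, AIL6 and AIL7 were called higher and PLT2 lower, so 4 of 8 members were higher and 1 lower. ANT entered the test through its later stages and AIL6 averaged below 1 TPM at 2/4-cell, so these 2 calls are a description. Of all genes, 27.9% were called higher and 9.78% lower, or 5124 and 1793 genes. After median-ratio scaling, which sets the median gene of every library level, the split over all genes was 2760 higher and 2709 lower, and after quantile normalization it was 2822 and 2530. The median log2 change of all tested genes was 0.46 before and 0.03 after that scaling, and all 5 member calls held under it, with log2 changes of 6.39 for ANT, 4.68 for AIL6, 2.34 for AIL5, 1.19 for AIL7 and -2.37 for PLT2.

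Against the 8-cell stage, whose libraries held far less seed coat RNA, 3 of 8 members were called higher at heart and 3 lower. ANT (log2 change 6.78), AIL6 (3.94) and AIL5 (1.89) were higher, and PLT2 (-1.30), PLT1 (-0.96) and BBM (-0.81) were lower. Here 36.4% of all genes were called higher and 10.1% lower, or 6669 and 1847 genes, and 3744 and 3548 after median-ratio scaling or 3240 and 3371 after quantile normalization, with a median log2 change of 0.43 as measured and 0.04 after median-ratio scaling. All 6 member calls held under median-ratio scaling, that of ANT being a description, since ANT lay below 1 TPM at 8-cell. AIL7, with a log2 change of -0.40 (adjusted p = 0.293) as measured, then had one of -0.84 (adjusted p = 0.0165).

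The other comparisons moved with scaling too. Over all genes the called numbers after median-ratio scaling were 628 higher and 256 lower in 32-cell against 16-cell, against 891 and 88 as measured. They were 726 and 1335 in globular against 32-cell, against 1520 and 1054 as measured, and 338 and 321 in heart against globular, against 420 and 271 as measured. After quantile normalization the same comparisons had 500 higher and 288 lower, 898 and 1065, and 306 and 346. The steps of ANT in these comparisons were 2.80, 2.05 and 1.41 on the log2 scale after median-ratio scaling. Those in globular against 32-cell and in heart against globular were called. The first, from levels below 1 TPM, is a description of when ANT appears.

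**Figure D3:**
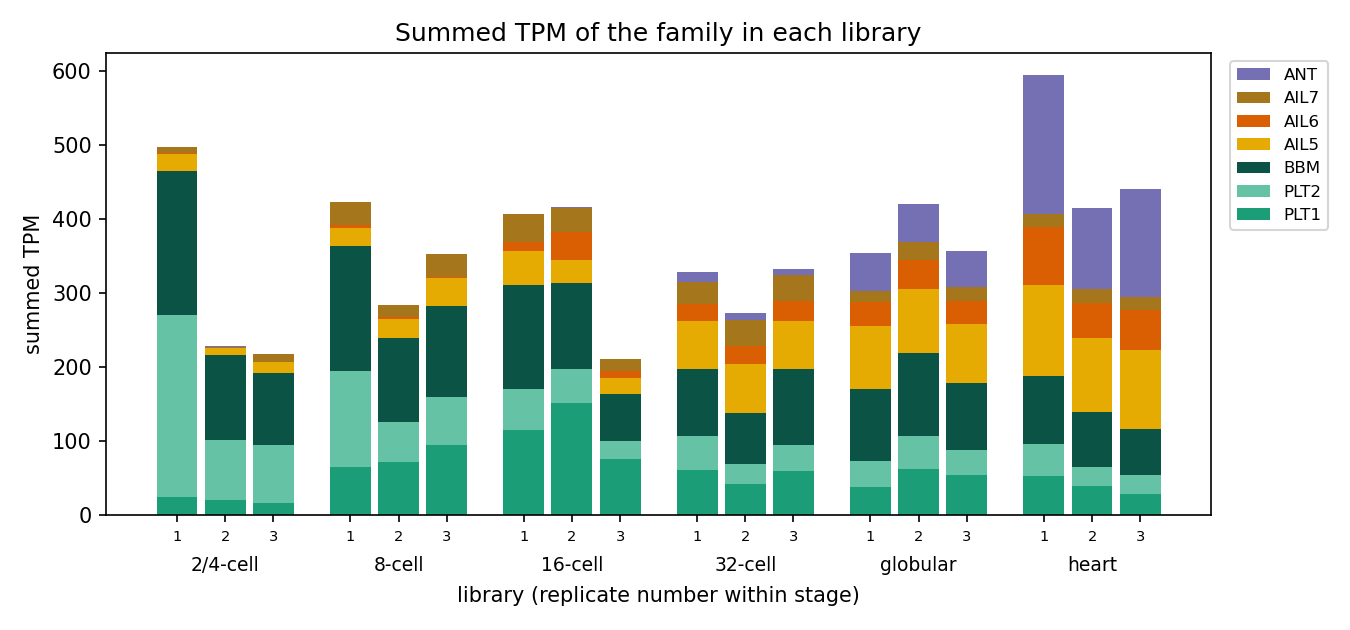
Summed TPM of the family in each of the 18 libraries, stacked by member and ordered by stage and replicate number (AIL1, at 0 or below 1 TPM, is not drawn). The total runs from 211 TPM in 16-cell replicate 3 to 594 TPM in heart replicate 1. PLT2 and BBM fill most of the 2/4-cell bars and ANT and AIL5 most of the heart bars.

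The summed level of the family changed less than its makeup. It was 315 ± 159 TPM in 2/4-cell embryos, 353 ± 69.7 in 8-cell embryos, 345 ± 116 in 16-cell embryos, 311 ± 32.9 in 32-cell embryos, 378 ± 37.9 in globular embryos and 483 ± 97.2 TPM in heart embryos (SD, n = 3 each). The highest mean was at heart as measured, but after median-ratio scaling the means were 354, 392, 388, 301, 323 and 389 in the same order, with 8-cell the highest. The sum of 211 TPM in 16-cell replicate 3, against 407 and 416 TPM in the other libraries of that stage, became 310, 424 and 428 after the scaling.

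As shares of the sum, PLT1, PLT2 and BBM together held 92.1 ± 3.32% in 2/4-cell embryos, 83.5 ± 2.98% in 8-cell embryos, 76.4 ± 0.97% in 16-cell embryos, 56.7 ± 5.19% in 32-cell embryos, 50.2 ± 2% in globular embryos and 30.6 ± 3.64% in heart embryos (SD, n = 3 each). AIL5, AIL6 and AIL7 together held 7.77 ± 3.36% at 2/4-cell and 40 ± 5.09% at 32-cell, with 36.4 ± 1.1% at globular and 39.1 ± 2.09% at heart. ANT held 0.138 ± 0.0409% of the 16-cell sum, 3.25 ± 0.626% of the 32-cell sum, 13.4 ± 0.975% of the globular sum and 30.3 ± 3.69% of the heart sum. In shares, the exchange was thus gradual for the root members, at its later size by 32-cell for the 3 AIL genes and late for ANT. The levels took another course. PLT1, PLT2 and BBM summed to means of 291, 295, 263, 178, 189.8 and 148 TPM in the order of stages. The 3 AIL genes summed to means of 124 TPM at 32-cell, 137 TPM at globular and 187 TPM at heart. This grouping by role was made with the levels known, so the shares are a description.

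Among single members, BBM was the most abundant by stage mean at 2/4-cell, 8-cell, 32-cell and globular, PLT1 at 16-cell and ANT at heart. PLT2 went through 40.1 ± 8.1% of the family sum at 2/4-cell, 22.6 ± 7.05% at 8-cell and 11.9 ± 1.45% at 16-cell, to 6.41 ± 0.678% at heart (SD, n = 3 each). The level of ANT was 0.00136 to 0.00621 times that of BBM in every library up to 16-cell, 0.0825 to 0.137 times at 32-cell, 0.462 to 0.542 times at globular and 1.47 to 2.34 times at heart. Only in the 3 heart libraries did ANT exceed BBM.

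**Figure D4:**
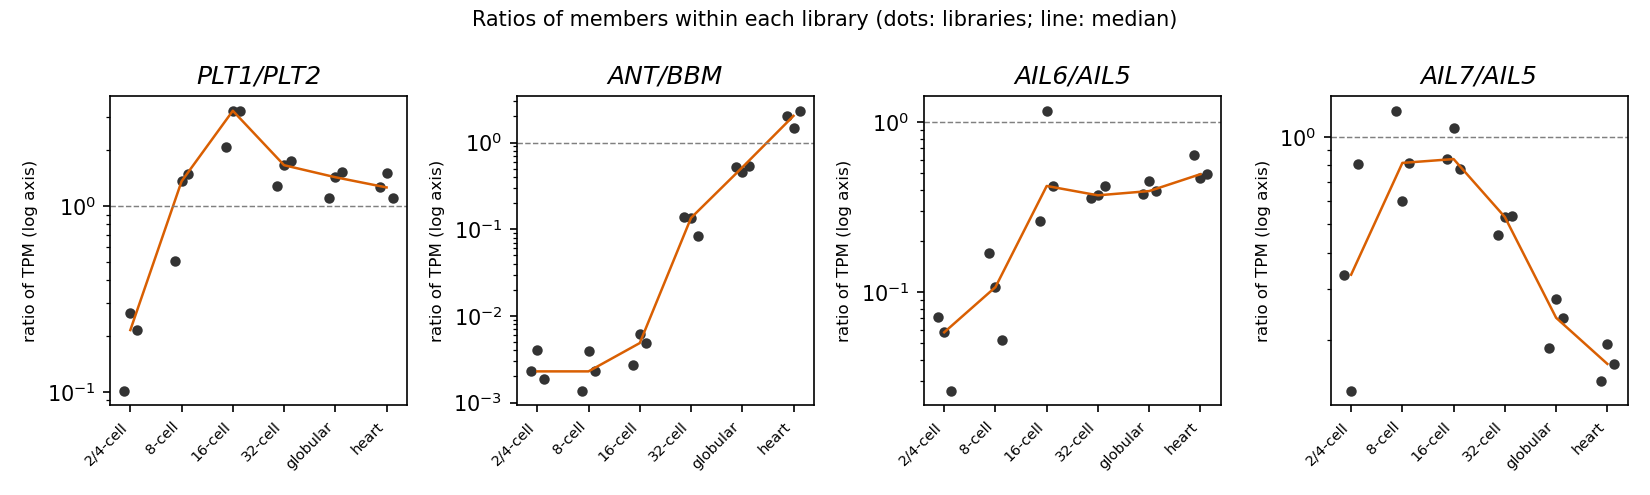
Ratios of TPM between members within each library, on log axes, by stage; dots are libraries (3 per stage), the line joins the stage medians and the dashed line marks equal levels. PLT1 over PLT2 crosses the dashed line at 8-cell and is highest at 16-cell (2.07 to 3.27), ANT over BBM crosses it at heart (1.47 to 2.34), and AIL7 over AIL5 has its lowest median at heart (0.145 to 0.194), with 2/4-cell replicate 2 (0.134) below these libraries and globular replicate 1 (0.188) among them.

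Pairs of members with a like course were found by Pearson's r over log2(TPM + 1) of the 18 libraries, which share stages and amplification and so are not independent points. The r was 0.90 between AIL5 and AIL6, 0.89 between ANT and AIL5, 0.89 between PLT2 and BBM and 0.70 between PLT1 and AIL7. It was -0.21 between PLT1 and PLT2 and -0.69 between PLT2 and AIL6. The root pair PLT1 and PLT2 therefore ran apart, while PLT2 ran with BBM.

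Among the tested genes that have a symbol, the 3 with the most similar course by the same measure were listed for each member. Tested genes without a symbol were not searched. With 1 exception the listed genes lay outside the family. For ANT these were GRF5 (AT3G13960, r = 0.996), SULTR1;2 (AT1G78000, 0.991) and HB25 (AT5G65410, 0.991). GRF5 had stage means of 0.379, 0.27, 0.492, 10.6, 68.7 and 153 TPM, close to those of ANT at each stage. For AIL5 they were ROPGEF1 (AT4G38430, 0.984), CIB5 (AT1G26260, 0.982) and F8H (AT5G22940, 0.972), and for AIL6 SCPL45 (AT1G28110, 0.966), TRM22 (AT1G67040, 0.965) and PHYE (AT4G18130, 0.963).

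The members with an early level had looser neighbours. For PLT1 they were CML11 (AT3G22930, 0.899), RR5 (AT3G48100, 0.846) and RABA5b (AT3G07410, 0.837). CML11 had its highest mean of 53.6 TPM at 16-cell, as PLT1 did, against 1.17 TPM at 2/4-cell. For AIL7 they were TMKL1 (AT3G24660, 0.934), CNX1 (AT5G61790, 0.912) and ETO1 (AT3G51770, 0.905). For PLT2 they were GAE2 (AT1G02000, 0.919), RPL3B (AT1G61580, 0.918) and RABA2c (AT3G46830, 0.91), and for BBM a gene named ATG2 in the reference (AT3G51800, 0.903), PUM24 (AT3G16810, 0.898) and PLT2 itself (0.889).

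Genes known to be regulated by members of the family were followed from a list of 11, all of them tested. BBM binds regulators of the embryo programme, LEC1, LEC2, FUS3, ABI3 and AGL15, and auxin synthesis genes of the TAA1 and YUC families, PLT genes act on CUC2 and YUC4 in shoot organ formation, and ANT promotes expression of the cyclin gene CYCD3;1. By the heart stage 7 of the 11 were called higher and 2 lower than at 2/4-cell, with a median log2 change of 1.56, against 0.46 over all genes, of which 27.9% were called higher and 9.78% lower. With median-ratio scaling 6 were called higher and 2 lower. YUC8, 1 of the 7, was the only target with a mean below 1 TPM at 2/4-cell, so its call describes when it appears. Consecutive stages differed in fewer of them, with 4 of 11 higher in 32-cell against 16-cell, where 4.86% of all genes were, and 0 of 11 in either direction in heart against globular, where 2.29% of all genes were higher and 1.48% lower.

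CUC2 (AT5G53950), a regulator of the boundary between cotyledons, changed the most of the 11. It averaged 81.2 ± 5.29 TPM at heart and 1.17 ± 0.278 TPM at 2/4-cell (SD, n = 3 each), a 38-fold difference (log2 change 5.25, SE 0.37, limma adjusted p = 7.8e-09). Its stage means were 1.17, 2.78, 27, 97.4, 84.9 and 81.2 TPM, so CUC2 was near its final level at 32-cell. At that stage the means of PLT1, PLT2 and BBM were 54.5, 35.8 and 87.4 TPM. Those of AIL5, AIL6, AIL7 and ANT were 65.3, 25, 33.2 and 10.1 TPM. Whether any member acted on CUC2 in these embryos was not tested.

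The regulators of embryo maturation did not move as one. FUS3 (AT3G26790) averaged 71.6 ± 1.76 TPM at heart and 5.53 ± 5.94 TPM at 2/4-cell, with a log2 change of 3.88 (limma adjusted p = 1.3e-06). ABI3 (AT3G24650) averaged 148 ± 21.6 TPM at heart and 11.5 ± 8.22 TPM at 2/4-cell, with a log2 change of 3.83 (limma adjusted p = 5.2e-07). AGL15 (AT5G13790), a MADS-domain factor, averaged 209 ± 23.1 TPM at heart and 73.1 ± 1.2 TPM at 2/4-cell, a log2 change of 1.50 (limma adjusted p = 1.7e-05). LEC2 (AT1G28300) fell, with 22.9 ± 1.49 TPM at heart and 79.7 ± 21.3 TPM at 2/4-cell, a log2 change of -1.73 (limma adjusted p = 7.3e-05). LEC1 (AT1G21970) had 512 ± 26.2 TPM at heart and 391 ± 149.6 TPM at 2/4-cell, and its log2 change of 0.46 was not called (adjusted p = 0.199) and was -0.03 after median-ratio scaling.

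CYCD3;1 (AT4G34160), a D-type cyclin of the cell cycle, averaged 58.9 ± 6.86 TPM at heart and 5.87 ± 3.29 TPM at 2/4-cell, a log2 change of 3.24 (limma adjusted p = 1.9e-07). It already stood at 24.5 ± 2.18 TPM at 16-cell (SD, n = 3), where all 3 ANT libraries were below 1 TPM. Whether ANT acted on CYCD3;1 in these embryos was not tested. The auxin synthesis genes differed among themselves. YUC3 (AT1G04610) averaged 17.4 ± 3 TPM at heart and 2 ± 1.45 TPM at 2/4-cell (log2 change 2.71, limma adjusted p = 2.1e-05), with its highest mean of 44.7 TPM at 32-cell. YUC8 (AT4G28720) averaged 2.54 ± 0.971 TPM at heart and 0.199 ± 0.345 TPM at 2/4-cell (log2 change 1.56). Its means lay below 1 TPM at every stage before 32-cell, so it passed the filter through later stages and no p is given. Its call was lost with median-ratio scaling (log2 change 1.32), without any 1 of the 2/4-cell libraries and without heart replicate 2.

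YUC4 (AT5G11320) averaged 55.8 ± 6.56 TPM at heart and 99.4 ± 1.84 TPM at 2/4-cell (log2 change -0.83, adjusted p = 0.0202), a call lost without any 1 of the 2/4-cell libraries (adjusted p between 0.064 and 0.0814). TAA1 (AT1G70560) averaged 21.9 ± 1.12 TPM at heart and 31.1 ± 18.3 TPM at 2/4-cell, and its log2 change of -0.28 was not called (adjusted p = 0.555).

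**Figure D5:**
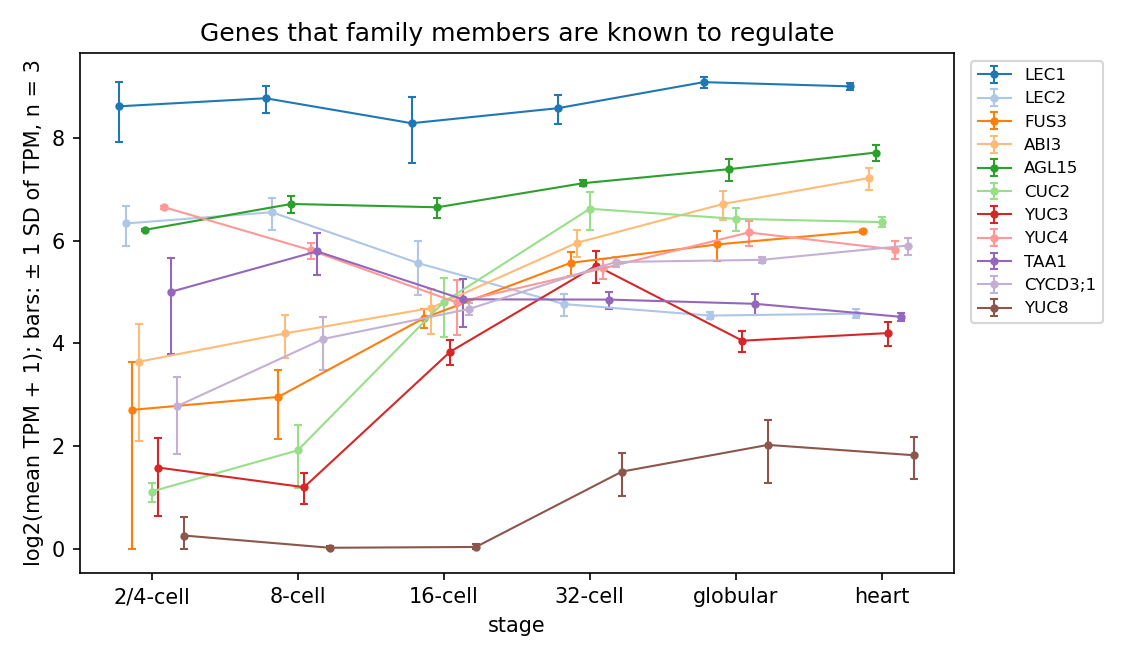
Levels of 11 genes known to be regulated by members of the family, as log2 of the stage mean of TPM + 1, by stage; bars are ± 1 SD of TPM over 3 libraries. CUC2, FUS3, ABI3 and CYCD3;1 stand higher at heart than at 2/4-cell, LEC2 stands lower, and LEC1 stays the most abundant throughout, at 512 TPM at heart and 391 TPM at 2/4-cell.

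Of 20 genes that act upstream of the family or on its proteins, 16 were tested, and in heart against 2/4-cell embryos 8 were called higher and none lower, with a median log2 change of 1.31. Over all genes 27.9% were higher and 9.78% lower, with a median of 0.46. With median-ratio scaling 7 of the list were higher and 1 lower. In heart against 8-cell embryos 9 were higher and 2 lower, where 36.4% and 10.1% of all genes were, and 5 were higher and 3 lower after median-ratio scaling. The 3 with the largest change were the locus AT5G48940, PHV and MP. AT5G48940 averaged 15.4 ± 1.06 TPM at heart and 0.127 ± 0.0513 TPM at 2/4-cell (log2 change 3.87), and like 2 others of the 16 it was below 1 TPM on average at 2/4-cell, so no p is given for it. At 8-cell it averaged 0.496 TPM, so the count of genes higher at heart than at 8-cell, which includes it, is in part a description. PHV (AT1G30490), a class III HD-ZIP factor of apical fate, which acts against PLT genes in the apical part of the embryo, averaged 90.5 ± 10.6 TPM at heart and 10.8 ± 3.77 TPM at 2/4-cell (log2 change 3.0, limma adjusted p = 2.3e-06). MP (AT1G19850), the auxin response factor upstream of PLT1 and PLT2, averaged 372 ± 105 TPM at heart and 76.3 ± 23.5 TPM at 2/4-cell (log2 change 2.28, limma adjusted p = 1.5e-04). MP was thus higher at heart, where PLT2 was lower.

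Of 13 genes of the root stem cell niche and root auxin transport, the domain in which PLT1, PLT2 and BBM act, 12 were tested. In heart against 2/4-cell embryos 11 were called higher and none lower, with a median log2 change of 3.09, and 9 were called higher with median-ratio scaling. Over all genes 27.9% were higher and 9.78% lower, with a median of 0.46. Of the 12, 9 averaged below 1 TPM at 2/4-cell and so passed the filter through later stages. All 9 of these were among the called, which makes the count and the median a description of late expression. The 3 with the largest change were of this kind. WOX5 (AT3G11260), a homeobox gene of the quiescent centre, averaged 40.4 ± 7.14 TPM at heart and 0.893 ± 0.988 TPM at 2/4-cell (log2 change 4.56). JKD (AT5G03150), a zinc finger protein of the root ground tissue, averaged 26 ± 4.91 TPM at heart and 0.241 ± 0.0625 TPM at 2/4-cell (log2 change 4.43). MGP (AT1G03840), another zinc finger protein that interacts with SHR and SCR, averaged 15.3 ± 3.57 TPM at heart and 0.065 ± 0.0718 TPM at 2/4-cell (log2 change 3.91). Against the 8-cell stage 9 of the 12 were called higher at heart and 1 lower, where 36.4% of all genes were higher and 10.1% lower. Genes below 1 TPM on average at 8-cell were among the 9, such as JKD (0.135 TPM) and MGP (0.038 TPM). They passed the filter through later stages, so this count is in part a description as well.

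The wider AP2 group consists of genes whose proteins share the pair of AP2 domains. Of its 10 other genes on the list 8 were tested, and in heart against 2/4-cell embryos 3 were called higher and 2 lower, with a median log2 change of -0.09. With 27.9% of all genes higher and 9.78% lower, the count of 3 is near that of all genes. TOE2 (AT5G60120) averaged 29 ± 5.63 TPM at heart and 5.13 ± 3 TPM at 2/4-cell (log2 change 2.41, limma adjusted p = 6.5e-04), and AP2 (AT4G36920), a floral organ identity gene, averaged 132 ± 15.9 TPM at heart and 36.9 ± 3 TPM at 2/4-cell (log2 change 1.80, limma adjusted p = 2.1e-05). TOE3 (AT5G67180) averaged 1.28 ± 0.494 TPM at heart and 4.68 ± 1.22 TPM at 2/4-cell (log2 change -1.32, adjusted p = 0.0447), a call lost without any 1 of 6 libraries (adjusted p between 0.0581 and 0.156). The TOE3 call was also lost with either other pseudocount, either other filter or a weight for each library (limma adjusted p between 0.0512 and 0.106). No gene of this wider list reached the log2 change of 5.05 of AIL6 or of 6.74 of ANT.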

How the data were processed

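The authors deposited 1 table of TPM per gene for 18 libraries. Reads were trimmed with Trim Galore 0.6.6 and quantified with kallisto 0.44.0 against TAIR10, per the submitters' processing notes. How transcripts were summed to genes, and how reads shared by related genes were divided, is not given in the sources used here. Every column has the same total TPM, so depth is unknown. Names come from a TAIR10.1 annotation, which matched 27445 genes; since the builds differ, no coordinates or sequences are given.

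A gene was tested where 3 or more libraries held at least 1 TPM of it, with limma 3.58.1 in R 4.3.3. The model had a mean for each stage of log2(TPM + 1), over all libraries in a single fit, with an intensity trend and a weight estimated for each stage. Weights were used because the early libraries varied more. Tests were two-sided with Benjamini-Hochberg adjustment over all tested genes, and calls were made at an adjusted p under 0.05. The model was tested on simulated data, where most of the smaller changes were missed in every comparison but heart against globular. The misses were most frequent in comparisons with the 2/4-cell stage. False calls exceeded the set rate in those comparisons and in heart against globular. Nothing states that replicates come from separate plants, so p-values speak only of the spread among these libraries, which may be technical.

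All 8 members were reported. The members, gene lists, tests and alternatives were chosen with earlier results of these data known. For each tested member the 3 genes with the highest r among tested genes with a symbol were named. From each list up to 3 called genes with the largest change in heart against 2/4-cell were named, and all 11 known targets. A withheld gene was left out of the lists and is not reported here. Marker genes named were chosen after their values were seen. Alternatives were other pseudocounts (0.1 and 5), filters (none and 5 TPM), scalings, weights, robust moderation, a replicate block, the compared stages alone, and each library left out. Fits without the 2/4-cell stage, and alternatives for the lists, were chosen after seeing the data.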

Additional observations from a re-analysis of the deposited data

How the results depend on the processing

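The calls of ANT in globular against 32-cell and in heart against globular held under every alternative run. So did those of AIL5 in heart against both early stages and of AIL6 and PLT2 in heart against 8-cell. The 3 other ANT calls, against stages where it lay below 1 TPM, held too, but since it passed the filter through later stages they describe its appearance only. The AIL6 call in heart against 2/4-cell, where its mean was below 1 TPM, held as well and is likewise a description. Of the recomputed values of called members 534 stayed called, 17 did not and 0 changed sign. Where the library left out belonged to neither stage compared, the log2 change stayed as it was, so its sign could not change. The tally also holds the ANT and AIL6 calls against stages below 1 TPM. Of the values of members not called, 38 became called. The number of members called was 2 in 8-cell against 2/4-cell, 1 with only the stages compared in the fit, and 3 with quantile normalization or equal weights. It was 1 in 16-cell against 8-cell and 0 with only the stages compared, where 0 of all genes were called. It was 2 in 32-cell against 16-cell, 1 with only the stages compared, and 3 with median-ratio scaling, quantile normalization, equal weights or a weight for each library. It was 1 in globular against 32-cell and 2 (ANT and AIL7) with a pseudocount of 5, quantile normalization, median-ratio scaling, robust moderation, a 5 TPM filter, a weight for each library, only the stages compared, or no 2/4-cell stage. It was 1 in heart against globular, 2 with a pseudocount of 5 and 5 with a weight for each library. It was 5 in heart against 2/4-cell, 6 with either scaling or a weight for each library and 7 with equal weights, and 6 in heart against 8-cell and 7 with either scaling. With only the stages compared the calls lost were AIL7 in 8-cell against 2/4-cell (adjusted p = 0.254), AIL6 in 16-cell against 8-cell (0.29) and AIL5 in 32-cell against 16-cell (0.0634). The cause of these differences was not tested, beyond the fewer samples in fits of the compared stages alone.

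With single libraries left out, the members called ranged over 0 to 2 in 8-cell against 2/4-cell, 0 to 1 in 16-cell against 8-cell, 1 to 3 in 32-cell against 16-cell, 1 to 2 in globular against 32-cell and in heart against globular, 4 to 6 in heart against 2/4-cell, 5 to 6 in heart against 8-cell and 6 to 7 in the F test. BBM also missed the F test with no filter (adjusted p = 0.144), equal weights (0.0959) and no 2/4-cell stage (0.0557).

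Changes of sign were confined, among the results and alternatives run, to log2 changes that were not called. Ranges are those with single libraries left out. ANT was at 0.01 and 0.00 in 8-cell against 2/4-cell without 2/4-cell replicate 2 or 8-cell replicate 1 (-0.14 to 0.01). PLT1 was at 0.11 in globular against 32-cell without globular replicate 1 (-0.25 to 0.11). PLT2 was at 0.07 and 0.04 in 32-cell against 16-cell without 16-cell replicate 1 or 32-cell replicate 2 (-0.53 to 0.07), and at -0.05, -0.08, -0.06 and -0.09 in globular against 32-cell with median-ratio scaling, quantile normalization, library weights or without 32-cell replicate 2 (-0.09 to 0.33). AIL5 was at -0.14 in 16-cell against 8-cell without 16-cell replicate 1 (-0.14 to 0.38). AIL7 was at -0.12 and -0.04 in that comparison without 8-cell replicate 2 or 16-cell replicate 1 (-0.12 to 0.53), at -0.01 and -0.11 in 32-cell against 16-cell with median-ratio scaling or without 16-cell replicate 3 (-0.11 to 0.46), and at 0.06 in heart against globular without globular replicate 2 (-0.21 to 0.06). BBM was at -0.05, -0.16 and -0.13 in 8-cell against 2/4-cell without 2/4-cell replicate 2, 2/4-cell replicate 3 or 8-cell replicate 1 (-0.16 to 0.32), and at 0.00 in 32-cell against 16-cell without 16-cell replicate 1 (-0.57 to 0.00). LEC1 was at -0.03 with median-ratio scaling and TAA1 at 0.13 without 2/4-cell replicate 1 (-0.86 to 0.13), both in heart against 2/4-cell.

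Libraries of different stages with the same replicate number were not clearly more alike than others. The r of their deviations from the stage means had a median of 0.0259 (-0.139 to 0.21) over 45 same-numbered pairs. It was -0.0181 (-0.243 to 0.259) over 90 others. The ranges overlap, so whether same-numbered libraries share a batch cannot be told from them. With the replicate block 6 members were called in heart against 2/4-cell, where BBM had a log2 change of -0.78 (adjusted p = 0.0311), 6 in heart against 8-cell, 7 in the F test, and 2, 1, 2, 1 and 1 in the consecutive comparisons in order.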
